A study of Homo sapiens with 12 samples.

Results

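The genes described here lie on distal chromosome 15q, the outer portion of the long arm. They comprise every gene of the deposited count tables whose RefSeq start on chromosome 15 (GRCh38.p14, the same build as hg38) lies at or beyond 60000000. This gave 610 of 60483 genes, of which 39548 could be placed on a chromosome by symbol, and 679 genes on the rest of chromosome 15 served as background. The members start at 60004311, with FOXB1, and the last one ends at 101979093. They were 298 protein-coding genes, 146 pseudogenes and 31 transcribed pseudogenes, 96 long non-coding RNA (lncRNA) genes, 28 microRNA genes, 6 small nucleolar RNA (snoRNA) genes, 3 small nuclear RNA (snRNA) genes and 2 other non-coding RNA genes. The region was chosen with its mut and WT total RNA values in view, so every difference between mut and WT total RNA below is a description and not an independent test.

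The mut cells were HEK293 cells, an established human embryonic kidney line, that produced a catalytic mutant of the 3′ exoribonuclease DIS3L2, and the WT cells were HEK293 cells that produced wild-type DIS3L2. Both proteins were recoded, carried a C-terminal FLAG tag and came from a doxycycline-inducible Flp-In T-REx cassette, which in both groups also expressed hairpin RNAs against the cells' own DIS3L2 transcript. All cells received doxycycline at 100 ng/ml for 3 days. Each group had 3 total RNA libraries, rRNA-depleted and strand-specific, and 3 small RNA libraries treated with TAP and selected for inserts of 20 to 200 nt. The labels do not say whether a group was 1 cell line or several, nor whether the libraries were separate cultures, so the spread given is between libraries and may be technical. DNA of the lines was not analysed here.

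Each total RNA library had between 8315986 and 12675042 reads counted in genes, and each small RNA library between 493314 and 1219718 fragments. Reads in no annotated gene took 12.3% to 13.7% of the mut libraries and 16.6% to 19.4% of the WT libraries, and the part of this gap in the results was not tested. DIS3L2 itself, on chromosome 2, had 1144, 1040 and 1091 CPM in mut libraries, against 763, 813 and 777 CPM in WT libraries, where CPM is the read count scaled to a common library size with TMM factors and is not adjusted for gene length. That count may hold transgene and endogenous reads together. HEK293 markers (NEFL, NEFM, INA, VIM, KRT8 and KRT18) summed to 1837 to 1958 CPM in mut libraries and 1528 to 1677 CPM in WT libraries, none at 0. Blood cell markers summed to less than 1 CPM in every library, with PTPRC, CD3E and HBB among those at 0 in mut and CD3E and HBB among those at 0 in WT. Fibroblast markers summed to 4.48 to 6.70 CPM in mut and 2.59 to 3.52 CPM in WT, with COL1A2, LUM and DCN at 0 in both. The part of these lists in the results was not tested.

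Genes of a chromosome segment share a place on the DNA and not a function. Distal 15q holds genes for glycolysis (PKM), the citrate cycle (IDH2, IDH3A), cytosolic and mitochondrial ribosomes, RNA decay, growth factor signalling (IGF1R, MAP2K1) and U5 snRNA, which pairs with exon ends in the spliceosome. The RNA decay genes include DIS3L, a cytoplasmic exosome nuclease related to DIS3L2, and SKIC8, a subunit of the Ski complex that feeds mRNA to the cytoplasmic exosome.

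The upstream sequences of 4 members are shown because they were called in opposite directions in total RNA while lying in the same segment. RPP25 and CIB2 were among the largest rises, ARRDC4 and CA12 among the called falls. They were chosen after their values were seen, from called protein-coding members whose groups did not overlap. Eligible members had 1 start in the RefSeq table and no other RefSeq gene over the window. The 4 were the 2 largest rises and 2 largest falls among eligible members. Each run gives the 250 bases before the RefSeq start, 5′ to 3′ on the gene's strand (GRCh38.p14), and capitals mark the GC box letters GGGCGG or their reverse complement.
RPP25 (chr15:74956773-74957022, minus strand): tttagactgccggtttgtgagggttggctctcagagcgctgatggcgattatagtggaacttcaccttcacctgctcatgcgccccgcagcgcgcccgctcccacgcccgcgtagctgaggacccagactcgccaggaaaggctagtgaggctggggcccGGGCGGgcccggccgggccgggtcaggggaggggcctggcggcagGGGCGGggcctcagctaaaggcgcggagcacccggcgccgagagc
CIB2 (chr15:78131536-78131785, minus strand): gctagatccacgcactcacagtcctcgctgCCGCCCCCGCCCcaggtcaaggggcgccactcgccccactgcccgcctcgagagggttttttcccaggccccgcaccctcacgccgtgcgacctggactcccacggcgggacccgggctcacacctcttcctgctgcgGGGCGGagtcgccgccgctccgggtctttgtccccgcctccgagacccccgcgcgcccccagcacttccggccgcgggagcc
ARRDC4 (chr15:97960453-97960702, plus strand): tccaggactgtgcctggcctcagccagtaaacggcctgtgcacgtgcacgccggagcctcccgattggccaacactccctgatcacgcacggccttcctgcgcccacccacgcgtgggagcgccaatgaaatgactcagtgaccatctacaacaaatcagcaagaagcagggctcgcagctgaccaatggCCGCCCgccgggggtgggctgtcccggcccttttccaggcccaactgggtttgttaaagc
CA12 (chr15:63381847-63382096, minus strand): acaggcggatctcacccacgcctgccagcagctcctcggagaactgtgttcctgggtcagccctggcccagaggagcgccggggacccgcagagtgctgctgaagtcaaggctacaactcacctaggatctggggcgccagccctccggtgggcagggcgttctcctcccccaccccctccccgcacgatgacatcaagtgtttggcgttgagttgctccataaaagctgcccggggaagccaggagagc

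The windows of RPP25, CIB2 and ARRDC4 held 2, 3 and 1 GC boxes, and that of CA12 held none. Over all tested members with a start in the table, 69.4% of 219 upstream windows held a GC box on either strand, against 68.3% of 10608 windows of all tested genes and 59.2% of 169 windows on the rest of chromosome 15. Members called higher had it in 71.7% of 106 windows and members called lower in 5 of 8. The letters CCAAT were in 33.8% of the members' windows and in 35.7% of those of all tested genes, and TATAAA in 5.48% and 5.11%. All motifs were searched on both strands, and a match is a description of the sequence only. The shares in members and in all tested genes lay within 3 percentage points of each other for each of the 3 motifs.

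Of the 610 members, 257 had enough counts to be tested, among them 225 protein-coding genes and 17 lncRNA genes. The other 353 were too low, 170 of them at 0 in all 6 libraries and 183 with at least 1 count, up to a total of 68. A median count of at least 10 was reached in both groups by 248 of the tested members, in mut alone by 9 and in WT alone by none, so those 9 passed through the group where they were high. On edgeR's quasi-likelihood test over all 14409 genes tested (Benjamini-Hochberg adjusted p under 0.05), 123 of the 257 were called higher in mut, or 47.9%, where 13.0% of all tested genes were. Only 8 were called lower, or 3.11%, where 14.2% of all tested genes were. On the rest of chromosome 15, 9 of 205 tested genes were called higher, or 4.39%, and 36 lower, or 17.6%. In either direction 27.2% of all tested genes were called. Because the region was picked on this contrast, nothing is read from those shares. All 3 mut libraries lay above all 3 WT libraries for 140 members, where 19.4% of all tested genes did so, and below them for 15, where 21.2% did.

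The shift was broad and small. In these bulk libraries, a different share of cells with a transcript and a different amount of RNA per cell cannot be told apart. The median log2 fold change of mut over WT was 0.27 over the tested members, a ratio of 1.203, with quartiles of 0.10 and 0.43. It was −0.04 on the rest of chromosome 15, with quartiles of −0.19 and 0.12, and −0.01 over all tested genes. Values above 0 were found for 217 of 257 members, for 82 of 205 tested genes on the rest of the chromosome and for 48.7% of all tested genes. The spread among genes was alike in the 3 sets, with interquartile ranges of 0.34, 0.31 and 0.35 log2 units. Of the 257 members, 26 were called higher by more than 1.5-fold, and of these 12 by more than 2-fold. Over all 14409 tested genes these counts were 515 and 188, and over the 205 on the rest of the chromosome they were 3 and 2. Because the region was picked on this contrast, nothing is read from these counts.

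**Figure D1:**
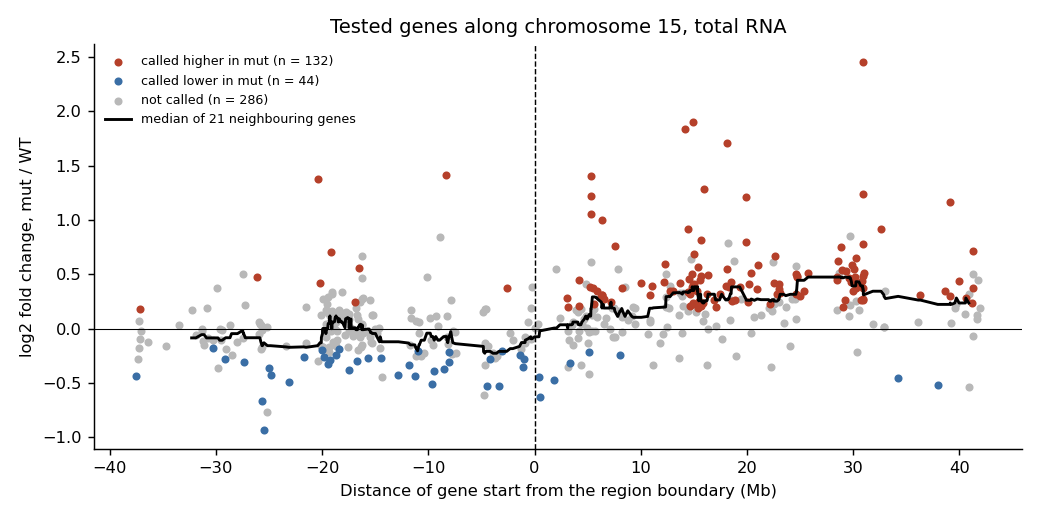
Each point is a tested gene of chromosome 15, placed by the distance of its start from the region boundary (Mb), with the log2 fold change of mut over WT total RNA on the vertical axis; red points were called higher, blue lower and grey neither. The line is the median of 21 neighbouring genes, which stays between −0.23 and 0.12 before the boundary, and beyond it reaches 0.48.

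Read along the chromosome, the median rose over the first 5 Mb intervals past the boundary and stayed above 0 to the end of the arm. In 5 Mb intervals the median log2 fold change was −0.16 from 55 to 60 Mb, 0.04 from 60 to 65 Mb and 0.19 from 65 to 70 Mb. It was 0.33 from 70 to 75 Mb, 0.30 from 75 to 80 Mb and 0.28 from 80 to 85 Mb. It was highest from 85 to 90 Mb, at 0.47, where all 19 tested genes were above 0 and 14 were called higher, and it was 0.37, 0.26 and 0.24 in the last 3 intervals. The first 5 Mb inside the boundary thus differed from the rest, with 4 of 29 genes called higher and 4 called lower, while from 65 Mb on 119 of 228 were called higher and 4 lower. In 1 Mb intervals the medians were uneven. They were 0.32 from 62 to 63 Mb (2 genes) and 0.01 from 63 to 64 Mb (10 genes). From 66 to 67 Mb the median was 0.29 (8 genes) and from 71 to 72 Mb −0.13 (3 genes). Whether the change sets in gradually or at a point was not tested.

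The median over 21 neighbouring genes was last at or below 0 at RORA, 60488284, and highest at AEN, 88604683. The longest unbroken run of tested genes with a value above 0 held 34 genes, from STOML1 at 73978926 to ETFA at 76215353. Of the 257 members, 40 were at or below 0. The genes nearest the boundary did not separate the sides. Just outside it, FAM81A, GTF2A2, BNIP2 and the pseudogene RPS3AP6 had log2 fold changes of 0.06, 0.20, −0.09 and 0.38, and none was called. Just inside it, FOXB1, ANXA2, ICE2 and RORA had 0.01, 0.05, −0.44 and −0.63.

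**Figure D2:**
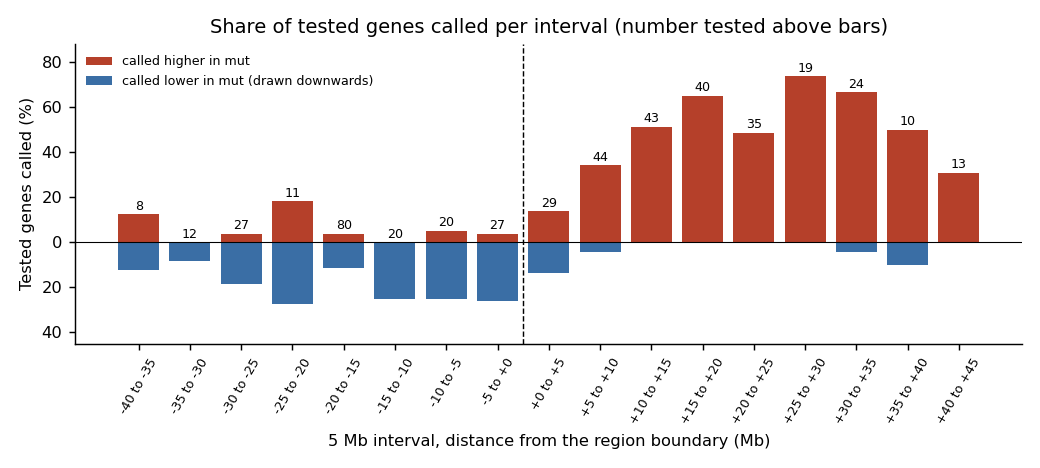
Bars give the share of tested genes (%) in each 5 Mb interval of chromosome 15 that were called higher in mut (red, upwards) or lower (blue, drawn downwards), with intervals given as distance from the region boundary and the number tested above each bar. Beyond the boundary the red bars cover 4 of 29 genes in the first interval and 14 of 19 in the sixth, and the blue bars are absent from 5 of 9 intervals.

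The same shift was seen in each mut library. Against the mean of the 3 WT libraries, the median log2 ratio over the 257 members was 0.28 in mut library 1, 0.26 in mut library 2 and 0.26 in mut library 3. Each WT library set against the other 2 had a median of 0.02, 0.01 and −0.01. No mut library was near a WT library on this measure. On the rest of chromosome 15 the medians were −0.10, −0.01 and −0.06 in mut libraries, against 0.03, −0.04 and 0.02 in WT libraries. The members took 1.836%, 1.805% and 1.807% of gene counts in mut libraries, against 1.502%, 1.519% and 1.457% in WT libraries. The rest of chromosome 15 took 0.78% ± 0.03 of gene counts in mut and 0.82% ± 0.02 in WT (SD, n = 3 each).

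**Figure D3:**
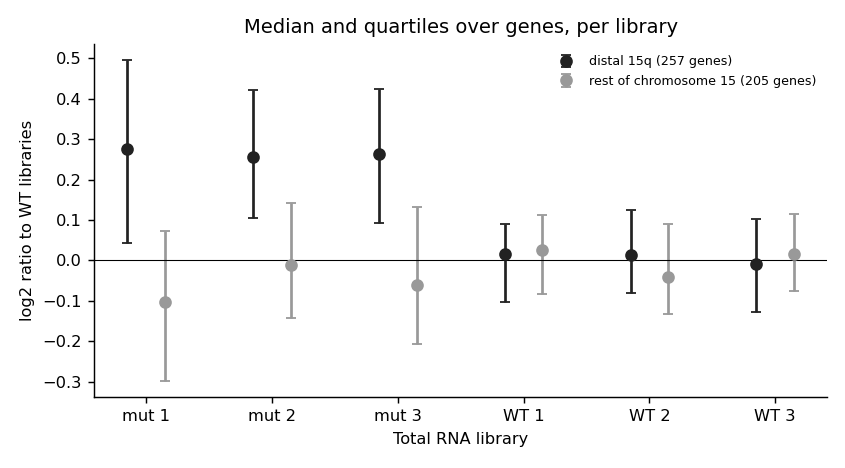
Points are the median over genes of the log2 ratio to WT in each total RNA library, and bars run over the middle 50% of genes, for distal 15q (black, 257 genes) and the rest of chromosome 15 (grey, 205 genes); mut libraries are set against the mean of 3 WT libraries and each WT library against the other 2. The black medians are 0.28, 0.26 and 0.26 in mut libraries, against 0.02, 0.01 and −0.01 in WT libraries.

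The shift was present in each class of gene examined by level and span. Over protein-coding members with a mean under 10 CPM, from 10 to 50 CPM and at 50 CPM or more, the medians were 0.26, 0.25 and 0.27. The same 3 classes had medians of 0.04, −0.02 and −0.09 on the rest of chromosome 15. By gene span, only the longest class of members had a lower median, while over all tested protein-coding genes the median fell at each step. Members spanning up to 10 kb, 10 to 100 kb and over 100 kb had medians of 0.28, 0.28 and 0.17, beside 0.07, −0.01 and −0.10 over all tested protein-coding genes. All 28 members of up to 10 kb were above 0, as were 63.7% of all tested protein-coding genes of that span and 59.3% of those on the rest of chromosome 15. The 17 tested lncRNA genes had a median of 0.30, with 4 called higher, or 23.5%, and none lower. Over all 750 tested lncRNA genes the median was 0.02, with 9.73% called higher and 9.6% lower. The 10 tested pseudogenes had a median of 0.23, with 1 called higher. The 5 tested snRNA, snoRNA and other short RNA genes had a median of 1.06, the value of SNORA24B. No median of this class over all tested genes was computed. Of the 5, 4 were called higher, all by more than 2-fold. Of all 14409 tested genes, 13.0% were called higher, and 188 genes by more than 2-fold. Among the 4 short RNA genes, SNORA24B averaged only 1.65 CPM in mut and 0.73 CPM in WT, and SCARNA14 1.92 and 0.94 CPM. At these levels both rest on few reads. They may be among the members that passed the filter through mut alone, so nothing is read from their separation.

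The largest rises were in genes with few reads or in snRNA genes. RPP25 (ENSG00000178718.6, 74954418 to 74956772), a protein subunit of RNase P and RNase MRP, stood at 4.02, 4.70 and 4.25 CPM in mut libraries, against 1.24, 1.18 and 0.983 CPM in WT libraries. Every mut library was more than 3 times every WT library, and the log2 fold change was 1.90 (SE 0.25). CIB2 (ENSG00000136425.11, 78104606 to 78131535), a calcium-binding protein needed for hearing, stood at 11.5, 8.93 and 9.08 CPM in mut libraries, against 3.21, 3.05 and 2.70 CPM in WT libraries. Its groups were far apart, with a log2 fold change of 1.71 (SE 0.17).

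SYNM (99105080 to 99141767), the intermediate filament protein synemin, had 7.26, 9.63 and 7.58 CPM in mut libraries, against 3.00, 3.92 and 3.93 CPM in WT libraries (log2 fold change 1.16, SE 0.18). STRA6, a membrane receptor for retinol-binding protein that overlaps CCDC33, averaged 2.59 ± 0.48 CPM in mut and 0.69 ± 0.22 CPM in WT (SD, n = 3 each). NRG4, a ligand of the receptor ERBB4, averaged 2.42 ± 0.52 CPM in mut and 0.93 ± 0.39 CPM in WT. SYNM and NRG4 reached a median count of 10 in both groups. FES, a tyrosine kinase, averaged 2.03 ± 0.08 CPM in mut and 0.84 ± 0.21 CPM in WT. ST20, an lncRNA gene in RefSeq that overlaps ST20-AS1 and ST20-MTHFS, averaged 2.14 ± 0.34 CPM in mut and 0.87 ± 0.28 CPM in WT. FES and ST20 were not called by DESeq2, which gave no adjusted p for RCCD1-AS1. RCCD1-AS1, an lncRNA gene that overlaps UNC45A, had 14, 15 and 10 reads in mut libraries, against 1, 4 and 3 reads in WT libraries. Its log2 fold change of 2.45 (SE 0.47) rests on these few reads, and STRA6, ST20 and RCCD1-AS1 are among the 9 members that passed the filter through mut alone, so their separation supports nothing. The strand setting of the counting is not given in the sources used here, so reads of RCCD1-AS1 and UNC45A may not be told apart.

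The U5 snRNA genes RNU5A-1 (65296051 to 65296167) and RNU5B-1 (65304677 to 65304793) are neighbours in the second 5 Mb of the region. RNU5A-1 stood at 54.5, 50.3 and 63.6 CPM in mut libraries, against 26.8, 19.6 and 17.0 CPM in WT libraries (log2 fold change 1.41, SE 0.11). RNU5B-1 stood at 64.4, 66.1 and 83.4 CPM in mut libraries, against 42.4, 27.8 and 21.1 CPM in WT libraries (log2 fold change 1.22, SE 0.14). Both were higher in every mut library than in any WT library. Reads with several alignments are not in the counts, so values of near-identical snRNA copies are uncertain. Without snRNA genes the members still summed to 18097 ± 256 CPM in mut and 14910 ± 104 CPM in WT (SD, n = 3 each).

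**Figure D4:**
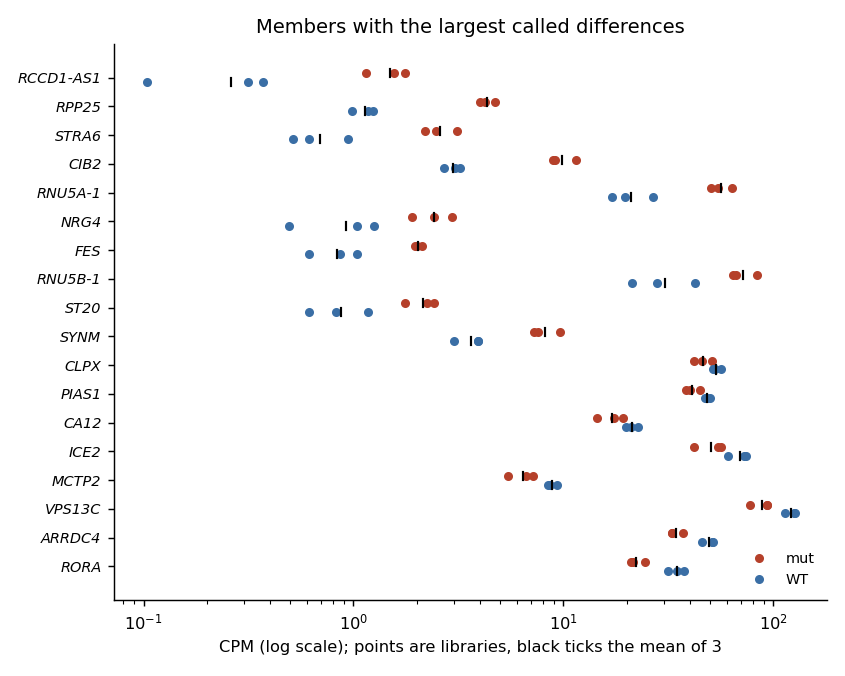
Points are the CPM (log scale) of each total RNA library for the 18 members with the largest called differences, mut in red and WT in blue, with black ticks at the mean of 3. The 10 rises, RCCD1-AS1 to SYNM, fill the upper rows and the 8 falls, ending with RORA, the lower rows; the rows were chosen among members whose groups do not overlap.

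The 8 called falls had log2 fold changes from −0.63 to −0.21, and 4 of them lay in the first 5 Mb past the boundary. RORA (ENSG00000069667.14, 60488284 to 61229302), a nuclear receptor of the circadian clock, stood at 20.99, 24.43 and 21.37 CPM in mut libraries, against 34.6, 31.5 and 37.7 CPM in WT libraries (log2 fold change −0.63, SE 0.09). VPS13C (61852389 to 62060447), a lipid transfer protein at organelle contacts, stood at 77.2, 93.5 and 93.5 CPM in mut libraries, against 126.9, 113.6 and 125.0 CPM in WT libraries (−0.47, SE 0.07). All mut libraries were below all WT libraries in both genes. ICE2, a subunit of the little elongation complex for snRNA transcription, averaged 50.8 ± 7.85 CPM in mut and 69.2 ± 7.36 CPM in WT. ARRDC4 (97960703 to 97973833), an arrestin-like adaptor, lies near the end of the arm and averaged 34.3 ± 2.43 CPM in mut and 49.3 ± 3.22 CPM in WT. MCTP2, CA12, a carbonic anhydrase, PIAS1, a SUMO ligase, and CLPX, a mitochondrial unfoldase, had log2 fold changes of −0.45, −0.31, −0.24 and −0.21. None of these 4 was called by DESeq2, and each lost its call when any of several single libraries was left out. CLPX also lost it with the replicate block.

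Members of the RNA processing and decay list were mostly higher, with 10 of 15 tested called higher and none lower, at a median log2 fold change of 0.29. Of all tested members 47.9% were called higher, and of all tested genes 13.0%. DIS3L (66293309 to 66333898) stood at 80.6, 79.2 and 80.7 CPM in mut libraries, against 66.0, 60.5 and 70.5 CPM in WT libraries (0.29, SE 0.07). SKIC8 stood at 61.4, 63.5 and 64.7 CPM in mut libraries, against 49.4, 48.0 and 47.7 CPM in WT libraries (0.39, SE 0.07). The groups did not overlap in either gene. AEN, an exonuclease induced by p53, averaged 207 ± 3.80 CPM in mut and 134 ± 5.70 CPM in WT (0.62, SE 0.06). SNUPN, the import adaptor of capped snRNPs, had a log2 fold change of 0.45, the kinase of splicing factors CLK3 0.32, LARP6, which binds collagen mRNAs, 0.31, INTS14 of the Integrator complex 0.22, the U3 snoRNP protein IMP3 0.21 and the decapping enhancer EDC3 0.21. EDC3 was not called by DESeq2 or with no filter on low counts. IMP3 and EDC3 were not called with the replicate number as a block. Among the left-out libraries, EDC3 kept its call only without mut library 2. LARP6, CLK3 and IMP3 were not called without WT library 1, nor INTS14 without mut library 2 or without WT library 3. The 5 not called were the exonuclease ISG20 (0.51), SNAPC5 (0.29) of the snRNA promoter complex, the cap methylation cofactor RAMAC (0.25), the mRNA-binding protein CPEB1 (0.22) and TRIP4 (−0.33).

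In the ribosome and translation list 5 of 8 tested members were called higher and none lower (median 0.21). RPL4 (66498015 to 66504855), a protein of the large ribosomal subunit, stood at 3207, 3016 and 3084 CPM in mut libraries, against 2533, 2605 and 2541 CPM in WT libraries (0.28, SE 0.05). Its groups did not overlap. RPLP1, of the large subunit's stalk, was not called, and its groups overlapped at 347, 280 and 356 CPM in mut libraries, against 248, 328 and 287 CPM in WT libraries. In the metabolic enzyme list 11 of 19 were called higher and CLPX lower (median 0.35). PKM (72199029 to 72231591), pyruvate kinase, the last step of glycolysis, stood at 2691, 2366 and 2473 CPM in mut libraries, against 1769, 1973 and 1854 CPM in WT libraries (0.43, SE 0.05). Each mut library was above each WT library for PKM. The mannose phosphate isomerase MPI and ETFA, an electron carrier subunit of fatty acid oxidation, had log2 fold changes of 0.41 and 0.32. HACD3, an enzyme of very long chain fatty acid synthesis and on none of the role lists, averaged 497 ± 18.8 CPM in mut and 383 ± 21.4 CPM in WT (0.37, SE 0.06).

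The other role lists had medians between 0.23 and 0.48. Receptors, kinases and signalling had 11 of 19 called higher and ARRDC4 and PIAS1 lower (median 0.30), with the kinase ULK3 at 0.50, the netrin receptor NEO1 at 0.35 and the anchoring protein AKAP13 at 0.35. Cytoskeleton and membrane traffic had 12 of 21 called higher and VPS13C lower (median 0.37), with the scaffold IQGAP1 at 0.40 and the recycling GTPase RAB11A at 0.11, not called. Transcription and chromatin had 10 of 20 called higher and RORA lower (median 0.24), with the corepressor TLE3 at 0.42, MORF4L1 at 0.26 and SIN3A at 0.19. SIN3A was not called by DESeq2, with no filter on low counts, with the replicate block or under 5 of the 6 left-out libraries. Adhesion and extracellular matrix had 9 of 15 called higher and none lower, at the highest median of the lists, 0.48. PCSK6 (101303933 to 101489707), a proprotein convertase near the end of the arm, averaged 76.7 ± 6.13 CPM in mut and 46.6 ± 4.08 CPM in WT (0.72, SE 0.08), and the immune checkpoint protein CD276 had 0.42.

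Cell cycle and genome maintenance had 5 of 12 called higher and none lower (median 0.23), with the spindle protein PRC1 and the Fanconi anaemia protein FANCI both at 0.26, and KIF23 at 0.04, not called. Ubiquitin and proteasome had 6 of 10 called higher and none lower (median 0.24), with the proteasome subunit PSMA4 at 0.43, and FEM1B at 0.11 and HERC1 at −0.15, neither called. In the nicotinic receptor cluster, 1 of 3 tested members was called, the receptor subunit gene CHRNA5 at 0.25, which DESeq2 did not call. IREB2 and HYKK there had 0.08 and 0.26 and were not called, and CHRNA3 and CHRNB4 were too low to test. Each list's share called higher may be read beside the 47.9% of all tested members and the 13.0% of all tested genes. For shares called lower, the values are 3.11% and 14.2%. The lists are small, down to 3 tested members, and the region was picked on this contrast. Nothing is read from how their shares differ.

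The rule for the region did not use the small RNA libraries, so their members were tested, although the region was chosen with earlier results of these libraries known. Of 182 annotated small RNA features on distal 15q, 21 had a fragment and 10 had enough to be tested among 559 features. None was called by edgeR's quasi-likelihood test, where 0.179% of all tested features were called, none had an unadjusted p under 0.05, and DESeq2 called none. The median log2 fold change of the 10 was 0.26 and 8 were above 0, beside a median of 0.02 and 52.6% above 0 over all 559 features. The rest of chromosome 15 had 4 tested features, with a median of 0.02.

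Mut library 3 stood apart from the other mut libraries in its U5 snRNA. The U5 genes RNU5A-1 and RNU5B-1 together took 23.7%, 24.6% and 11.7% of fragments in mut libraries, against 15.74%, 15.04% and 16.52% in WT libraries. RNU5A-1 had 169100, 179500 and 62140 CPM (fragments, TMM-scaled) in mut libraries, against 100300, 95520 and 98870 in WT libraries. The first 2 mut libraries were above all WT libraries and the third below them. Its log2 fold change was 0.48 (SE 0.37, edgeR adjusted p = 0.776), and without mut library 3 it was 0.82 (SE 0.13, adjusted p = 0.00534). RNU5B-1 had 102500, 84160 and 41880 in mut libraries, against 59640, 49860 and 54390 in WT libraries, again with the third mut library lowest. Its log2 fold change was 0.48 (SE 0.32, edgeR adjusted p = 0.738), and without mut library 3 it was 0.77 (SE 0.15, adjusted p = 0.0112). These were the 2 calls that leaving out a library gained. What sets mut library 3 apart was not tested.

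None of the snoRNAs within the span of RPL4 was called. SNORD16, a guide of rRNA methylation, had 1295, 1267 and 1214 CPM in mut libraries, against 1094, 1058 and 1178 in WT libraries. Its log2 fold change of 0.18 (SE 0.16) was not called. All mut libraries lay above all WT libraries for SNORD16, SNORD18C and SCARNA15, none of them called. The share of all tested small RNA features separated in this way was not computed, so nothing is read from these. SNORD18A, SNORD18B and SNORD18C had log2 fold changes of 0.25 (SE 0.24), −0.13 (SE 0.18) and 0.36 (SE 0.20). The Cajal body RNAs SCARNA15 and SCARNA14 had 0.59 (SE 0.30) and 0.17 (SE 0.36) on 8 to 29 and 17 to 81 fragments per library. The tRNA genes TRR-TCG1-1, an arginine tRNA, and TRK-CTT1-2, a lysine tRNA, had 0.27 (SE 0.24) and −0.09 (SE 0.18). With standard errors of this size, a shift like the 0.27 median of total RNA was not detectable in most single small RNAs. The standard errors did not simply follow depth. RNU5A-1 had the largest, 0.37, on 35109 to 203921 fragments per library, and TRK-CTT1-2 had 0.18 on 193 to 384.

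**Figure D5:**
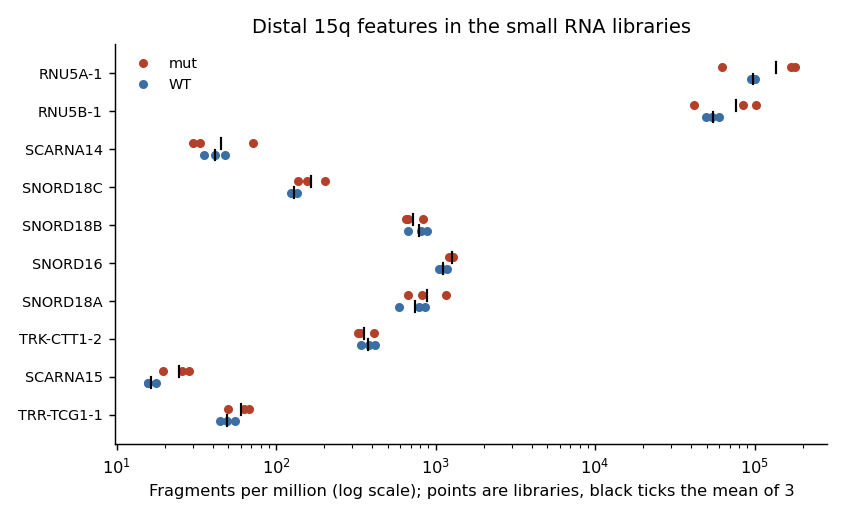
Points are fragment CPM, TMM-scaled (log scale), in each small RNA library for the 10 tested features of distal 15q, mut in red and WT in blue, with black ticks at the mean of 3. In the 2 top rows, RNU5A-1 and RNU5B-1, 2 mut libraries lie above and 1 below the WT libraries; the lower rows mostly overlap.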

How the data were processed

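The authors deposited raw read counts per gene for 6 total RNA libraries, and for 6 small RNA libraries fragment counts per feature with FPM, a signal scaled to depth, and FPKM. Of the tools in the submitters' processing notes, which give no roles, STAR 2.4.0 is an aligner and HTSeq 0.6.1 a read counter, and the build is hg38. Rows naming no gene held 57.8% to 63.2% of deposited reads and were left out. Positions came from RefSeq (GRCh38.p14) by symbol, and 907 of 14409 tested genes stayed unplaced. Small RNA names were given where both ends lay within 5 nt. The deposited FPM signal was not used, and the deposited FPKM served only an alternative, log2(FPKM + 1) in limma 3.58.1.

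Counts were tested in R 4.3.3 with edgeR 4.0.16 (TMM, filterByExpr, quasi-likelihood F test, Benjamini-Hochberg over all features, threshold 0.05, two-sided), checked on simulated data. Standard errors came from the fold change and its F statistic. DESeq2 1.42.0, other scalings, filters and boundaries, a replicate block and left-out libraries were alternatives. Named genes were the 10 largest called rises and falls without overlap (8 falls qualified), the 5 with most CPM, 4 on each side of the boundary, the RNA processing and decay list, the top 3 by CPM of each other list and all tested small RNAs; some items that the rule names are not reported here. Region, lists and rules were chosen with earlier results of these data known.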

Additional observations from a re-analysis of the deposited data

How the results depend on the processing

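The counts of members called higher and lower in mut total RNA were 123 and 8. DESeq2 called 86 and 4, and with no filter on low counts 111 were called higher. Leaving out 1 library at a time gave 101 to 113 called higher, 4 to 9 called lower and a median log2 fold change of 0.26 to 0.28 (0.285 at most and 0.259 at least). The count called lower was 4 without mut library 1 and without WT library 1, and 5 without mut library 3 and without WT library 3. The median was 0.22 with no filter and 0.28 with the trend on gene span removed. With the boundary at 55, 65, 70 or 80 Mb, members called lower numbered 15, 4, 2 and 2 and the median was 0.25, 0.30, 0.32 and 0.32, over fewer genes at the later boundaries, and at 80 Mb 56 were called higher. The median of the rest of chromosome 15 stayed between −0.08 and −0.03 over the left-out libraries. In small RNA, 2 members were called without mut library 3, and 0 under each other left-out library. Among genes named from total RNA, 3 that were not called crossed 0. FOXB1 was −0.006 with no filter and ranged from −0.056 (without WT library 1) to 0.124 over the left-out libraries. KIF23 ranged from −0.004 (without mut library 3) to 0.087 and CPEB1 from −0.001 (without WT library 2) to 0.43. No other named gene changed direction. The causes were not tested.

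Replicate numbers are shared between mut and WT. The deviations of same-numbered total RNA libraries correlated at −0.09, −0.07 and 0.03 and those of small RNA libraries at 0.20, −0.14 and −0.36. So few values cannot show whether same-numbered libraries were prepared together, and the labels do not say. With the replicate block 117 members were called higher and 7 lower, the median was 0.27, that of the rest of chromosome 15 was −0.05, and 0 small RNA members were called. Members under 10 CPM rest on few reads, and the tested small RNAs on as few as 8 fragments per library. The part of depth in the calls was not tested.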
